A study of Mus musculus with 3 samples.

Results

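The comparison described here set the library labelled DoxTam, from mouse embryonic stem cells (ESCs) given tamoxifen together with doxycycline, against the library labelled Tam, from cells given tamoxifen alone. For each gene the log2 ratio of FPKM + 1 was taken, DoxTam over Tam, where FPKM, a level per length and per library, corrects the fragments of a gene for its length and for library size. Of 23953 genes in the deposited tables, 12647 reached 1 FPKM in Tam, in DoxTam or in both and were kept. The libraries carry 1 sample for each condition, so every fold describes this pair of libraries, and no difference has a replicate check, an error or a p-value. The levels come from 2 separately deposited tables, each of which holds 1 treated library beside the WT library.

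Both treated libraries were made from E14 cells, an established mouse ESC line kept in medium with serum and LIF, in which loxP sites flank the CR4 region of the *Oct4* distal enhancer (DE) on both alleles. By the study's methods these cells also carry 3 lentiviral constructs, which encode rtTA (the doxycycline-dependent activator), mouse *Oct4* behind a TRE promoter that rtTA drives, and CreERT2 from a pSin vector. The lines were expanded from single clones, and no source used here names the clone behind each library. Treatment lasted 48 h in both libraries, with 4-OH tamoxifen to activate CreERT2 and so remove the flanked enhancer sequence, and doxycycline in the DoxTam library only. The labels list the same inducible constructs for the WT library, whose levels are given beside the others and enter no fold.

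OCT4, encoded by *Pou5f1*, is a POU transcription factor that holds ESCs in the undifferentiated state together with SOX2 and NANOG, and its dose in the cell matters: ESCs that lose it can turn toward trophectoderm, whose master regulator *Cdx2* OCT4 represses. The distal enhancer is the element that ESCs use to express *Oct4*, and a doxycycline-driven copy is a common way to supply OCT4 while the endogenous gene is impaired. The added doxycycline is the only labelled difference between the treated libraries.

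*Pou5f1* serves as the check of the labels. It stood at 529 FPKM in the library labelled Tam, 458 FPKM in the library labelled DoxTam and 664 FPKM in WT. The library labelled as carrying induced *Oct4* held the lowest of the 3 levels, which goes against the labels, and its log2 fold over Tam was -0.21. The library labelled Tam, from cells whose enhancer was to be removed, still held a high level. After both libraries were rescaled to the same summed FPKM the fold was 0.01, and with the GC trend removed it was -0.09. For this reason each library goes by its label, and no direction below is read as an effect of doxycycline.

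The level of *Pou5f1* is a sum over gene copies, because the transgene encodes mouse *Oct4* and its reads can be assigned to the gene. The study's own RT-qPCR primers show which part of the transcript can tell the copies apart, and they are printed here because a gene-level FPKM cannot make that distinction. Each was matched to the *Pou5f1* transcript of 5 exons in the mm9 annotation (chromosome 17, plus strand). The pair for total *Oct4* lies in the coding sequence, with the forward primer across the junction of exons 2 and 3 and the reverse primer across that of exons 4 and 5:
total forward: ggcgttctctttggaaaggtgttc
total reverse: ctcgaaccacatccttctct
The pair for endogenous *Oct4* lies in the 3′ UTR within exon 5, at positions 35647659 to 35647678 and 35647681 to 35647709:
endogenous forward: cctggcctgtctgtcactca
endogenous reverse: gtgtcccagtctttatttaagaacaaaat
The deposited levels have 1 value for the whole gene, so the endogenous and transgenic parts of the 458 FPKM could not be separated here.

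The libraries differed in depth and in signal from genes that ESCs do not use. From the smallest levels above 0, a transcript of 2 kb at 1 FPKM was estimated to rest on about 12.1 fragments in Tam and 14.8 in DoxTam. ESCs keep the olfactory receptor genes silent, yet of 1117 such genes 70.7% had a level above 0 in Tam, against 17.01% in DoxTam and 34.02% in WT, with a mean level of 0.285 FPKM in Tam and 0.0616 FPKM in DoxTam. Small RNA genes took 56.7% of the summed FPKM in Tam and 51.3% in DoxTam. The ESC markers were high in both, with *Sox2* at 268 FPKM in Tam and 268 FPKM in DoxTam, *Nanog* at 228 FPKM and 202 FPKM and *Esrrb* at 186 FPKM and 179 FPKM. Of 19 fibroblast genes 9 were kept, with a summed level over the list of 403 FPKM in Tam and 365 FPKM in DoxTam. Most of it was *Fn1* (293 and 270 FPKM) and *Vim* (76.9 and 70.05 FPKM). The matrix markers *Col1a1*, *Col1a2*, *Col3a1*, *Postn* and *Dcn* stayed below 0.4 FPKM in both libraries, and the level of the marker *Thy1* is not given here.

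Most genes had like levels in the treated libraries. Of the kept genes, 11657 (92.2%) lay within 1.5-fold, 264 were higher in DoxTam and 726 were lower, which is 2.09% and 5.74% of the kept genes, and the median log2 fold was -0.02. Lower genes thus made up 73.3% of the genes past 1.5-fold. That split moved with the scaling. Rescaling to the same summed FPKM raised the median fold by 0.19 and gave 710 higher and 445 lower genes, so that lower genes made up 38.5%. The small RNA gene *Mir6236* alone held 35.3% of the summed FPKM in Tam and 27.4% in DoxTam, so that rescaling depends heavily on it. The same rescaling without small RNA genes gave 322 higher and 651 lower genes. When the mean olfactory receptor level was subtracted from each library, a step chosen after seeing the data, 409 genes were higher and 532 were lower.

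**Figure D1:**
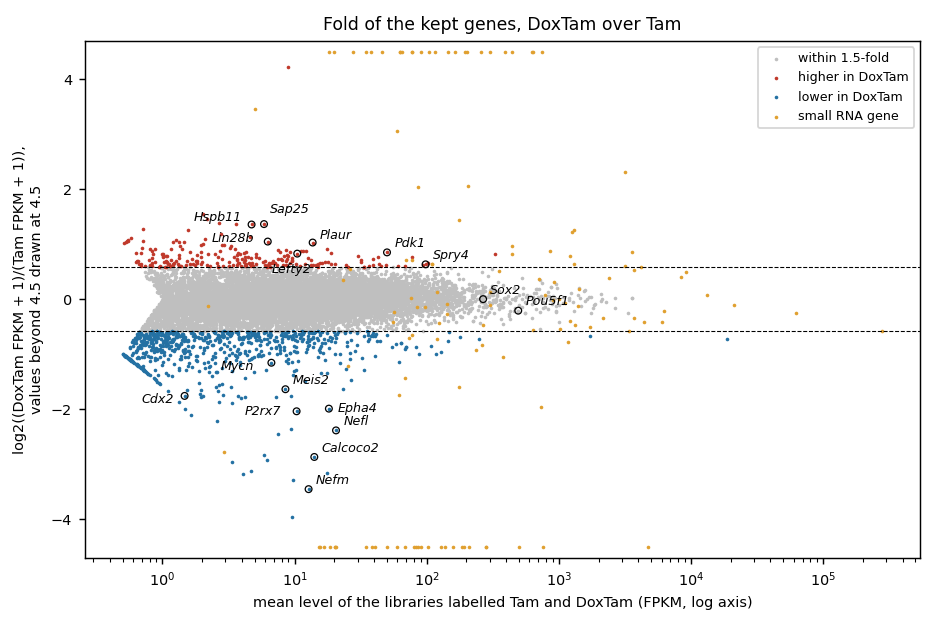
Log2 fold of each kept gene (y axis, log2 of FPKM + 1, DoxTam over Tam) against its mean level in both libraries (x axis, FPKM, log axis); dashed lines mark 1.5-fold, colours mark genes past it and small RNA genes, and circles mark named genes. Most of the 12647 points lie between the lines, *Nefm* and *Calcoco2* lie among the lowest protein-coding genes, and the small RNA genes spread to both edges.

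Lower genes outnumbered higher ones in every bin of mean level below 100 FPKM, and the lowest bin held 44.4% of all lower genes. Among 1851 genes with a mean level from 0.5 to 2 FPKM, 17.4% were lower and 4.32% were higher, and the median log2 fold was -0.17. Among 4691 genes from 5 to 20 FPKM the shares were 3.47% lower and 1.34% higher, and among 3264 genes from 20 to 100 FPKM they were 2.11% and 1.07%. Above 100 FPKM, 4.15% of 675 genes were lower and 4.30% higher, but 1.52% and 0.337% once small RNA genes were left out. With the mean olfactory receptor level subtracted, 13.3% of the same genes from 0.5 to 2 FPKM were lower and 8.97% higher, and from 5 to 20 FPKM 3.15% and 1.75%.

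**Figure D2:**
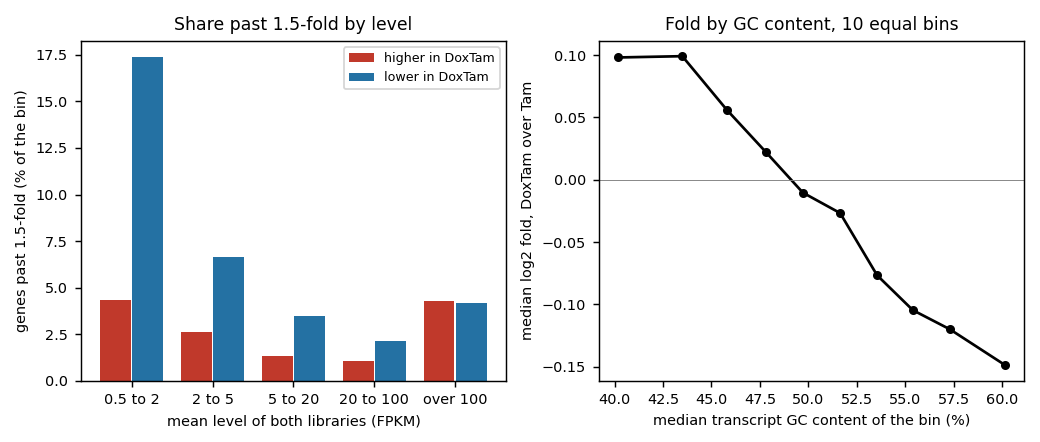
Left, share of genes past 1.5-fold (y axis, %) in bins of mean level (x axis, FPKM), with red bars for genes higher in DoxTam and blue bars for lower; right, median log2 fold (y axis) in 10 equal bins of transcript GC content (x axis, %). The share of lower genes drops from 17.4% in the lowest bin to 2.11% from 20 to 100 FPKM, and the median fold goes from 0.10 to -0.15 with GC content.

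Among named protein genes at 5 FPKM or more that the deposited tables mark as tested in both comparisons, the lowest folds were those of *Calcoco2*, *Nefl*, *P2rx7*, *Epha4* and *Meis2*. Genes without that mark were left out, and some lay lower. An example, named after its values were seen, is *Aox3* (18.7 FPKM in Tam, 0.271 FPKM in DoxTam, log2 fold -3.96). *Calcoco2*, a selective autophagy receptor, stood at 25.6 FPKM in Tam and 2.64 FPKM in DoxTam, a log2 fold of -2.87, with 7.74 FPKM in WT. *Nefl*, the light neurofilament subunit, stood at 35.3 FPKM in Tam, 5.94 FPKM in DoxTam and 8.45 FPKM in WT (log2 fold -2.39). Its chromosome 14 neighbour *Nefm*, the medium neurofilament subunit, is also without the mark and stood at 24.3 FPKM in Tam, 1.30 FPKM in DoxTam and 2.34 FPKM in WT. Both neurofilament genes were thus high in the library labelled Tam alone, while the heavy subunit gene *Nefh*, on chromosome 11 and named after its values were seen, stood at 4.65 FPKM in Tam and 6.13 FPKM in DoxTam.

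Tam was likewise the highest library for a channel, a receptor and a transcription factor. *P2rx7*, an ATP-gated ion channel, was at 17.3 FPKM in Tam, 3.45 FPKM in DoxTam and 3.34 FPKM in WT. *Epha4*, an ephrin receptor tyrosine kinase, was at 29.7 FPKM in Tam, 6.72 FPKM in DoxTam and 4.22 FPKM in WT. *Meis2*, a TALE homeobox factor that works with PBX and HOX proteins, was at 13.4 FPKM in Tam, 3.64 FPKM in DoxTam and 2.08 FPKM in WT. In each of them the library labelled Tam stood far above both others, and their log2 folds ran from -2.04 to -1.64.

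The remaining 7 of the 12 lowest folds lay between -1.49 and -1.31. *Cdx1*, a caudal homeobox gene, stood at 14.6 FPKM in Tam, 5.02 FPKM in DoxTam and 6.97 FPKM in WT. *Plagl1*, an imprinted zinc finger gene, stood at 23.3 FPKM, 8.63 FPKM and 8.30 FPKM in the same order. *Tnfrsf19*, a receptor of the TNF receptor superfamily, stood at 6.63 FPKM, 1.81 FPKM and 3.08 FPKM. The other genes were *Fetub*, *Slc35g1*, *Zfp951* and *Lmo7*, whose Tam levels ran from 14.5 to 39.7 FPKM and whose DoxTam levels ran from 5.27 to 13.7 FPKM.

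**Figure D3:**
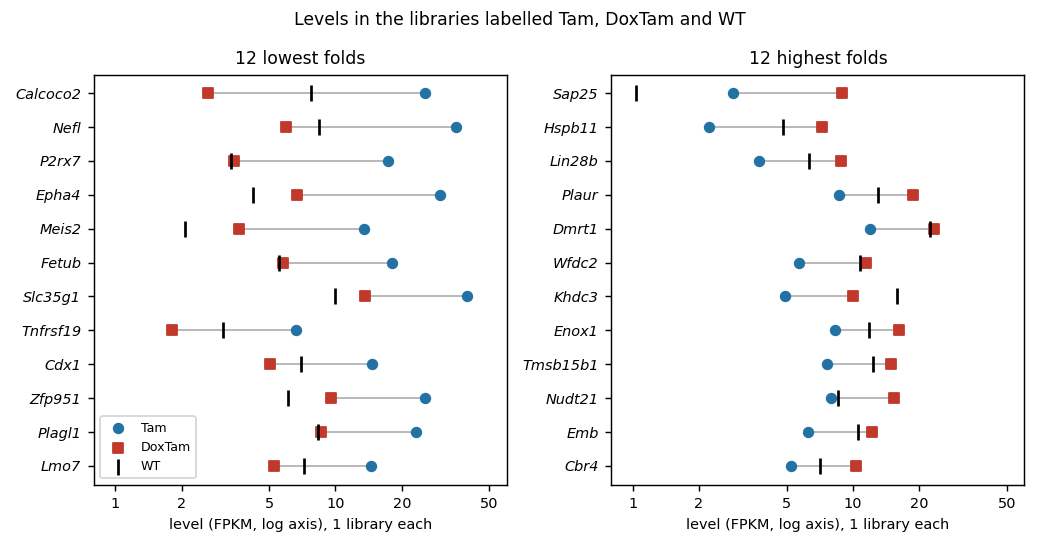
Levels (x axis, FPKM, log axis) of the 12 genes with the lowest folds (left) and the 12 with the highest folds (right) from 5 FPKM upward, without unnamed gene models, small RNA genes, olfactory receptors and genes not marked as tested in both deposited tables, with 1 point for each library and a grey line joining Tam and DoxTam. On the left WT lies nearer to DoxTam than to Tam for all 12 genes, and on the right it lies between both treated libraries for 10 of 12.

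Under the same limits, the 12 highest folds ran from 0.86 to 1.37. *Sap25*, a subunit of the SIN3 corepressor complex, was at 2.85 FPKM in Tam, 8.91 FPKM in DoxTam and 1.03 FPKM in WT, a log2 fold of 1.37. *Hspb11*, an intraflagellar transport protein gene, was at 2.22 FPKM in Tam and 7.25 FPKM in DoxTam (1.36). *Lin28b*, an RNA-binding protein that blocks let-7 maturation, was at 3.74 FPKM in Tam, 8.81 FPKM in DoxTam and 6.30 FPKM in WT (1.05). These genes were all below 4 FPKM in Tam, and the *Hspb11* and *Sap25* levels there rest on an estimated 8.17 and 18.4 fragments.

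Other genes among the 12 highest rested on more fragments. *Plaur*, the urokinase receptor, was at 8.68 FPKM in Tam, 18.8 FPKM in DoxTam and 12.9 FPKM in WT (log2 fold 1.03). *Dmrt1*, a DM domain factor of the germline, was at 11.9 FPKM, 23.4 FPKM and 22.3 FPKM in the same order (0.92). *Khdc3*, a maternal-effect gene of the subcortical complex, was at 4.93 FPKM, 10.005 FPKM and 15.8 FPKM (0.89). For *Plaur*, *Dmrt1* and *Khdc3* the low library was Tam, with DoxTam and WT both above it, as was the case for *Lin28b*. *Wfdc2*, *Enox1*, *Tmsb15b1*, *Nudt21*, *Emb* and *Cbr4* filled the list with folds from 0.86 to 0.90.

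Where WT lay between or beside the treated libraries was then counted over all genes past 1.5-fold. WT was nearer to DoxTam than to Tam, on the log2(FPKM + 1) scale, for 518 (71.3%) of the 726 lower genes and for 129 (48.9%) of the 264 higher genes. Over all kept genes the share was 46.5%. These genes were chosen by their Tam and DoxTam levels, so a high or low value in 1 of the 2 libraries places WT nearer to the other, and the shares are a description.

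Of 20 trophectoderm genes 15 were kept, and none was higher. Of the 15 kept genes 4 (26.7%) were lower, against 5.74% of all kept genes and 17.4% of those from 0.5 to 2 FPKM. The median log2 fold was -0.22. After rescaling to the same total it was -0.04, against 0.17 over all kept genes. In bulk libraries fewer cells of a type and less RNA per cell cannot be told apart. *Cdx2* stood at 2.82 FPKM in Tam, 0.128 FPKM in DoxTam and 0.639 FPKM in WT. *Tfap2a*, an AP-2 factor of trophectoderm and surface ectoderm, stood at 3.66 FPKM, 0.382 FPKM and 0.577 FPKM in the same order. *Gata3*, which acts in parallel in trophectoderm, stood at 1.77 FPKM, 0.213 FPKM and 0.0980 FPKM. All 3 were highest in Tam, passed the filter through Tam alone, and their log2 folds were -1.76, -1.75 and -1.19. The *Cdx2* level in DoxTam rests on an estimated 2.14 fragments, against 38.6 in Tam. *Eomes* (4.08 FPKM in Tam, 5.43 FPKM in DoxTam), *Krt8* (5.98 and 7.25 FPKM) and *Krt18* (13.5 and 10.6 FPKM) lay within 1.5-fold, and *Elf5*, *Krt7* and *Hand1* were below 1 FPKM in both libraries.

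The promoter of *Cdx2* is shown because OCT4 is known as a repressor of this gene and binds the octamer motif, ATGCAAAT, or near matches to it. The sequence is RefSeq's (GRCm38.p6), covers the 250 bases before the gene's start at chr5:147307250-147307499 on the minus strand, and has the octamer in capitals:
Cdx2: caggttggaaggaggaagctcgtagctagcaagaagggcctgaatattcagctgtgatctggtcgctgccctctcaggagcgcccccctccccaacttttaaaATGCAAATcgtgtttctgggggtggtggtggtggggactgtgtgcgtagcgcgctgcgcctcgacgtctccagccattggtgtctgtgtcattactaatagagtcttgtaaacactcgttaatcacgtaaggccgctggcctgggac
The octamer, searched on both strands, begins 147 bases before the start. It was found in 1.61% of all 27025 promoters of this length, in 1.30% of the 9397 kept genes matched to a promoter by symbol, in 1.45% of 482 lower genes and in 1.25% of 160 higher genes. The lower genes as a set therefore held it about as often as the kept genes did, and a match of letters does not show binding. The promoters of *Tfap2a* and *Gata3*, searched in the same way, did not hold the octamer.

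Of the other lineages, mesoderm and primitive streak had 7 of 19 genes kept, with 2 lower (28.6%) and 1 higher (14.3%). The counts of this and the later lists are to be set beside 5.74% lower and 2.09% higher of all kept genes. From 0.5 to 2 FPKM those shares were 17.4% and 4.32%. After rescaling to the same total, the median over all kept genes was 0.17. That step made 710 genes higher and 445 lower of 12591 past the filter. *T*, the brachyury factor, stood at 1.92 FPKM in Tam, 0.511 FPKM in DoxTam and 0.309 FPKM in WT, and passed the filter through Tam alone. *Twist1*, the higher gene, stood at 3.48 FPKM, 6.09 FPKM and 3.91 FPKM in the same order. *Mixl1*, *Mesp1* and *Gsc* were below 1 FPKM in both treated libraries. Of neuroectoderm genes 11 of 20 were kept, and the 3 lower ones (27.3%) were *Nefm*, *Nefl* and *Nes*, which encode intermediate filament proteins. The regulators *Sox1*, *Pax6* and *Neurog2* stayed below 1 FPKM, and the median over the 11 genes was 0.23.

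Primitive endoderm and endoderm had 9 of 23 genes kept, of which 2 (22.2%) were lower. The lower ones were the basement membrane genes *Col4a1*, at 10.2 FPKM in Tam, 4.62 FPKM in DoxTam and 11.9 FPKM in WT, and *Col4a2*, at 5.30 FPKM, 2.80 FPKM and 5.71 FPKM. Here the library labelled DoxTam was the one that stood apart, below Tam and WT alike. *Lama1* (31.4 FPKM in Tam, 27.2 FPKM in DoxTam) and *Lamb1* (16.9 and 21.0 FPKM) lay within 1.5-fold. *Gata6*, *Sox17*, *Sox7* and *Pdgfra* were below 1 FPKM in both libraries, and the level of the marker *Gata4* is not given here. None of the 11 kept genes of primed epiblast and none of the 9 kept fibroblast genes passed 1.5-fold.

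The Wnt pathway sustains ESC self-renewal through β-catenin, which relieves the repressor TCF7L1, and it had 3 lower (16.7%, against 5.74% of all kept genes) and no higher genes among 18 kept of 26. The targets *Sp5* and *Axin2* were among them: *Sp5* was at 2.66 FPKM in Tam and 0.372 FPKM in WT and is listed at 0 in DoxTam, so it was kept through Tam alone. *Axin2*, the feedback inhibitor that most cells induce on Wnt signalling, was at 10.4 FPKM in Tam, 5.21 FPKM in DoxTam and 5.85 FPKM in WT (log2 fold -0.87). *Tcf7l1* itself was at 12.8 FPKM, 7.26 FPKM and 15.1 FPKM (-0.74), and lay within 1.5-fold after rescaling to the same total (-0.54). Of the upstream members, *Ctnnb1* (224 FPKM in Tam, 227 FPKM in DoxTam) and the co-receptor *Lrp6* (22.2 and 25.6 FPKM) lay within 1.5-fold. For *Sp5* and *Axin2* the library labelled Tam was the high one, whereas *Tcf7l1* was lowest in DoxTam.

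The promoter of *Sp5* is printed as that of a direct Wnt target, with the letters CTTTGAT of the TCF motif in capitals, over the 250 bases before the start (RefSeq, GRCm38.p6, chr2:70474673-70474922, plus strand):
Sp5: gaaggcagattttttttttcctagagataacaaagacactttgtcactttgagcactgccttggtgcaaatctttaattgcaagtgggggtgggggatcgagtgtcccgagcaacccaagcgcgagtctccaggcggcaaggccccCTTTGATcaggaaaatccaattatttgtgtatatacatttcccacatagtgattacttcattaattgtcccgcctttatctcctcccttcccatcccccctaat
The motif, searched on both strands and not overlapping the octamer above, was in 3.23% of all promoters, in 2.19% of those of kept genes, in 17 (3.53%) of the 482 lower genes and in 5 (3.13%) of the 160 higher genes. *Axin2* and *Tcf7l1* had a promoter in the table without these letters.

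Nodal signalling, which ESCs run through their own ligand, had 2 higher and 2 lower genes (11.1% each) among 18 kept of 22. Its secreted inhibitors *Lefty1* and *Lefty2*, neighbours on chromosome 1 and targets of the pathway, were both higher: *Lefty1* was at 4.72 FPKM in Tam, 8.005 FPKM in DoxTam and 4.37 FPKM in WT (log2 fold 0.65). *Lefty2* was at 7.28 FPKM, 13.7 FPKM and 5.53 FPKM in the same order (0.83). For both, DoxTam stood above Tam and WT, which lay close to each other. The ligand *Nodal* was at 55.4 FPKM in Tam and 42.6 FPKM in DoxTam, its co-receptor *Tdgf1* at 457 FPKM and 600 FPKM, and the receptor *Acvr1b* at 17.1 FPKM and 18.7 FPKM, all within 1.5-fold. The lower genes were *Gdf3*, a TGFβ ligand of ESCs at 21.7 FPKM in Tam and 13.7 FPKM in DoxTam, and *Fst*, an activin antagonist at 1.55 FPKM and 0.642 FPKM. *Fst* passed the filter through Tam alone. Neither passed 1.5-fold after rescaling to the same total. That step gave 5 higher and no lower genes and a median of 0.27, against 0.17 over all kept genes.

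The BMP pathway had 1 higher (7.14%) and 3 lower (21.4%) genes among 14 kept of 18. The ligand *Bmp4* was at 73.5 FPKM in Tam, 113 FPKM in DoxTam and 79.9 FPKM in WT (log2 fold 0.62), and its target *Id1* was at 118 FPKM, 166 FPKM and 167 FPKM (0.49), within 1.5-fold. *Id2* (16.1 FPKM in Tam, 16.9 FPKM in DoxTam) and *Id3* (16.7 and 15.4 FPKM) barely differed. The lower genes were the inhibitory *Smad6*, at 5.39 FPKM in Tam, 2.21 FPKM in DoxTam and 5.23 FPKM in WT, the homeobox target *Msx2*, at 2.07 FPKM, 0.363 FPKM and 1.03 FPKM, and the ligand *Bmp7*, at 1.74 FPKM, 0.797 FPKM and 2.41 FPKM. *Msx2* and *Bmp7* passed the filter through Tam alone, which favours a lower call. The ligand *Bmp4* and the inhibitor *Smad6* thus passed 1.5-fold in opposite directions.

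The FGF-ERK pathway, which primes ESCs to leave self-renewal, had 3 higher (13.0%) and 2 lower (8.70%) genes among 23 kept of 30. Its median log2 fold was 0.21. The higher ones were the feedback inhibitors *Dusp6*, a phosphatase of ERK, at 53.7 FPKM in Tam, 82.3 FPKM in DoxTam and 55.3 FPKM in WT (0.61), and *Spry4*, at 76.8 FPKM, 120 FPKM and 103 FPKM (0.63), with the ligand *Fgf17* at 3.39 FPKM, 5.84 FPKM and 4.88 FPKM (0.64). The immediate early genes *Fos*, at 5.30 FPKM in Tam, 2.04 FPKM in DoxTam and 3.19 FPKM in WT, and *Jun*, at 5.96 FPKM, 2.51 FPKM and 3.61 FPKM, were lower. Both sets are read as outputs of ERK signalling, and they stood on opposite sides. The main ligand *Fgf4* (90.9 FPKM in Tam, 90.4 FPKM in DoxTam), *Spry2* (86.3 and 84.4 FPKM), *Etv5* (96.6 and 78.8 FPKM) and *Egr1* (8.37 and 9.82 FPKM) lay within 1.5-fold. After rescaling to the same total, 6 genes of the list were higher and 2 lower. The median was then 0.34, against 0.17 over all kept genes.

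In the Myc and Max network, which drives growth, 2 (18.2%) of 11 kept genes were lower and none was higher. *Mycn* was at 9.61 FPKM in Tam, 3.76 FPKM in DoxTam and 11.5 FPKM in WT (log2 fold -1.16), and *Mycl* at 10.6 FPKM, 4.85 FPKM and 6.48 FPKM (-0.98). *Myc* was at 21.1 FPKM in Tam, 27.5 FPKM in DoxTam and 37.1 FPKM in WT (0.37), and the partner *Max* was at 48.6 FPKM and 55.0 FPKM in Tam and DoxTam. The paralogs therefore did not share a direction.

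All 49 genes of the pluripotency network were kept, with a median of -0.01. As deposited 2 were higher (4.08%, against 2.09% of all kept genes) and 5 lower (10.2%, against 5.74%). The higher ones were *Lin28b* and *Nr0b1*, a nuclear receptor that binds OCT4, at 28.8 FPKM in Tam, 44.2 FPKM in DoxTam and 35.7 FPKM in WT (0.60). The lower ones were *Mycn*, *Tcf7l1*, *Gdf3*, *Dppa3* and *Spp1*. *Spp1*, which encodes the secreted protein osteopontin and carries an OCT4-bound enhancer, was at 220 FPKM in Tam, 136 FPKM in DoxTam and 132 FPKM in WT (-0.69). *Dppa3* was at 1.55 FPKM, 0.405 FPKM and 1.09 FPKM in the same order, and passed the filter through Tam alone. *Klf4* (160 FPKM in Tam, 150 FPKM in DoxTam), *Zfp42* (104 and 99.0 FPKM), *Utf1* (90.6 and 83.2 FPKM) and *Sall4* (102 and 98.4 FPKM) lay close together. *Utf1* was at 181 FPKM in WT, above both treated libraries. After rescaling to the same total, 10 of the 49 genes were higher and 2 lower. The median was then 0.20, against 0.17 over all kept genes, and of 12591 genes 710 were higher and 445 lower.

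*Llgl2* and *Grb7*, the genes on chromosome 11 whose loci the study paired with the enhancer, lay within 1.5-fold. *Llgl2*, a basolateral polarity gene, was at 61.6 FPKM in Tam, 55.6 FPKM in DoxTam and 84.8 FPKM in WT, and its log2 fold was -0.15 as deposited and 0.07 after rescaling to the same total. *Grb7*, an adaptor of receptor tyrosine kinases, was at 15.0 FPKM, 16.7 FPKM and 20.1 FPKM (0.15). For both genes the treated libraries lay nearer to each other than to WT. Of the 24 kept genes that the study names, *Cdx2* and *T* passed 1.5-fold.

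Around *Llgl2*, the polarity and Hippo pathway had 3 lower (9.09%) and no higher genes among 33 kept. *Cyr61*, a target of YAP and TEAD, was at 12.7 FPKM in Tam, 5.93 FPKM in DoxTam and 6.22 FPKM in WT (-0.98), while the target *Ctgf* was at 20.5 FPKM, 16.5 FPKM and 12.7 FPKM (-0.30). *Amotl2* (41.1 FPKM in Tam, 25.5 FPKM in DoxTam) and the kinase gene *Lats2* (5.66 and 3.28 FPKM) passed 1.5-fold as deposited and not after rescaling to the same total. *Yap1* was at 40.1 FPKM and 34.6 FPKM. Around *Grb7*, 15 of 20 receptor tyrosine kinase and adaptor genes were kept, and *Epha4* was the only one past 1.5-fold.

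**Figure D4:**
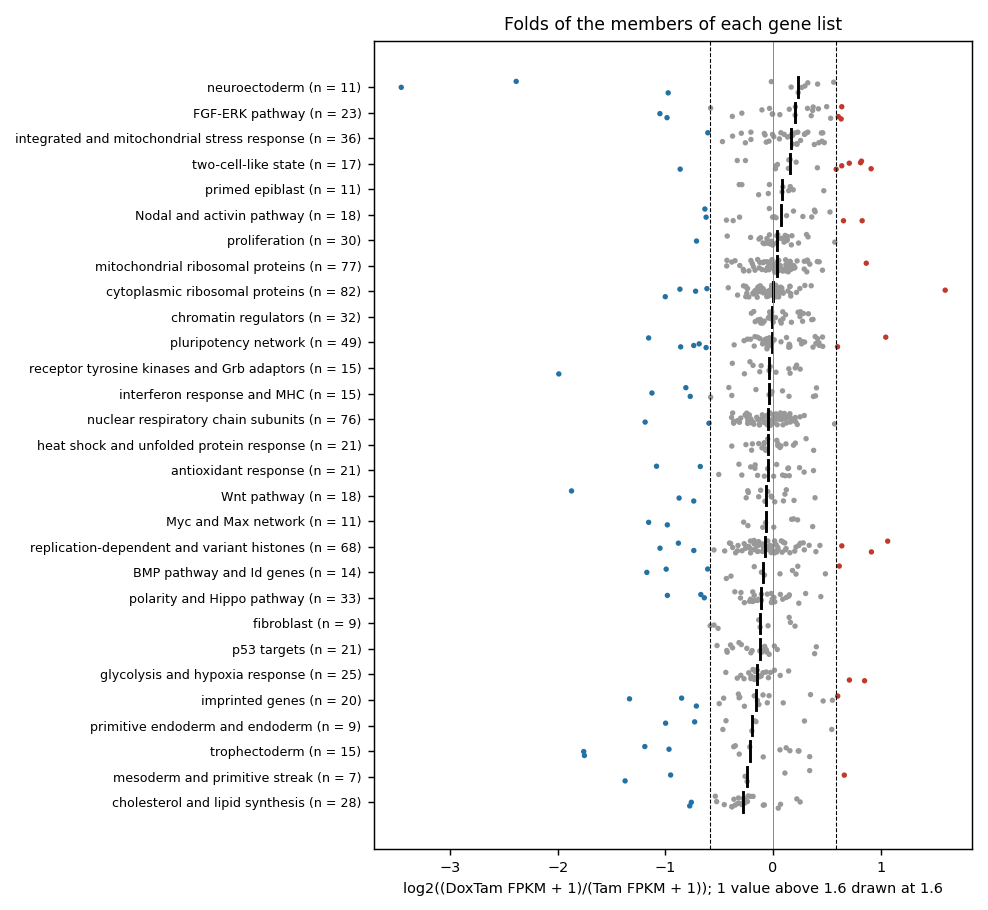
Log2 fold, DoxTam over Tam (x axis), of every kept member of the gene lists (y axis, number kept in brackets), without the olfactory receptors, the small RNA genes and the genes the study names, with a black bar at the median, dashed lines at 1.5-fold, red points above and blue points below them. Medians run from -0.28 for cholesterol and lipid synthesis to 0.23 for neuroectoderm among the lists drawn, and most of them have few members beyond the lines.

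Genes of the 2-cell-like state, a rare state of ESC cultures that resembles the early embryo, had 6 of 17 kept members higher (35.3%) and 1 lower. This was the highest share of higher members among the lists, close to the 33.8% of the small RNA genes. Of all kept genes 2.09% were higher, with 4.32% from 0.5 to 2 FPKM and 2.63% from 2 to 5 FPKM. *Zscan4e* was at 2.52 FPKM in Tam, 5.18 FPKM in DoxTam and 2.33 FPKM in WT (0.81), *Zscan4c* at 2.96 FPKM, 5.47 FPKM and 4.98 FPKM (0.71), and *Zscan4b* at 0.663 FPKM, 2.13 FPKM and 1.75 FPKM (0.91). *Zscan4f*, *Usp17le* and *Tdpoz4* were the other higher ones. *Dux*, which switches this state on, was at 1.38 FPKM in Tam and 0.309 FPKM in DoxTam. *Zscan4b* passed the filter through DoxTam alone and *Dux* through Tam alone. The *Zscan4* and *Usp17l* families are close copies, so reads can be split among them, and the levels are low, so the members are not separate observations.

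Among 20 kept imprinted genes 3 (15%) were lower and 1 (5%) was higher. The lower ones were *Plagl1*, *H19* at 1.998 FPKM in Tam and 0.664 FPKM in DoxTam, and *Rian* at 1.64 FPKM and 0.612 FPKM. *H19* and *Rian* passed the filter through Tam alone. The higher one was *Mest*, at 48.1 FPKM in Tam and 73.5 FPKM in DoxTam. None of 32 chromatin regulators passed 1.5-fold, *Tet1* among them with 131 FPKM in Tam and 165 FPKM in DoxTam. Interferon response and MHC genes had 3 lower (20%) of 15 kept. These were the membrane proteins *Ifitm1*, at 75.1 FPKM in Tam, 42.4 FPKM in DoxTam and 32.3 FPKM in WT, and *Ifitm3*, at 45.9 FPKM, 26.5 FPKM and 19.4 FPKM, with *Oas1a*, which is listed at 0 in DoxTam and was kept through Tam alone.

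Cholesterol and lipid synthesis had the lowest median of the lists drawn, -0.28, against -0.02 over all kept genes. Of 28 kept genes 24 were below 0, as were 20 of 25 kept glycolysis and hypoxia genes and 17 of 21 kept p53 targets. In the integrated and mitochondrial stress response 12 of 36 were below 0. Of the 28 genes 2 (7.14%) were lower by 1.5-fold. *Mvk*, mevalonate kinase, was at 16.0 FPKM in Tam, 8.95 FPKM in DoxTam and 12.2 FPKM in WT, and *Scd1*, a fatty acid desaturase, at 16.6 FPKM, 9.37 FPKM and 5.47 FPKM. *Sqle*, squalene epoxidase, lay within 1.5-fold at 56.5 FPKM in Tam, 38.6 FPKM in DoxTam and 26.9 FPKM in WT. After rescaling to the same total the median was -0.08, against 0.17 over all kept genes, and neither *Mvk* nor *Scd1* passed. With the GC trend removed the median was -0.23.

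Glycolysis and hypoxia genes had 2 higher of 25 kept and a median of -0.15. After rescaling to the same total the median was 0.07, against 0.17 over all kept genes. *Pdk1*, the kinase that restrains pyruvate entry into mitochondria, was at 35.5 FPKM in Tam, 64.8 FPKM in DoxTam and 44.8 FPKM in WT (0.85), and *Eno3* was at 2.56 FPKM, 4.82 FPKM and 4.54 FPKM (0.71). *Hk2* (137 FPKM in Tam, 131 FPKM in DoxTam), *Pgk1* (72.9 and 68.3 FPKM) and *Ldha* (522 and 453 FPKM) lay within 1.5-fold, so that *Pdk1* stood alone among the abundant members. Antioxidant genes had 2 lower of 21 kept, the glutathione transferases *Gstm1*, at 36.0 FPKM in Tam, 16.5 FPKM in DoxTam and 17.2 FPKM in WT (-1.08), and *Gstp1*, at 12.8 FPKM, 7.61 FPKM and 10.2 FPKM (-0.68).

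Housekeeping lists held close to equal levels. Of 77 mitochondrial ribosomal protein genes 1 was higher (*Mrps33*, 2.77 FPKM in Tam and 5.88 FPKM in DoxTam). Of 76 kept respiratory chain subunits 2 were lower, *Ndufa3* (179 FPKM in Tam and 118 FPKM in DoxTam) and *Atp5l*. The latter was at only 1.28 FPKM in Tam and is listed at 0 in DoxTam, so it passed the filter through Tam alone. Of 82 cytoplasmic ribosomal protein genes 4 were lower and 1 was higher. The lower ones included the paralogs *Rpl10l* (29.99 FPKM in Tam, 14.5 FPKM in DoxTam) and *Rpl39l* (90.3 and 49.1 FPKM), and the higher one was *Rpl26* (0.00808 FPKM and 17.8 FPKM), which has close copies elsewhere and is uncertain. The highest levels among protein genes were those of *Rplp2* (3651 FPKM in Tam, 3083 FPKM in DoxTam), *Eef1a1* (3586 and 3638 FPKM) and *Rplp1* (2786 and 2504 FPKM), all within 1.5-fold.

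No gene passed 1.5-fold among 21 p53 targets, where *Cdkn1a* was at 20.04 FPKM in Tam and 14.7 FPKM in DoxTam, or among 21 heat shock and unfolded protein genes. The integrated and mitochondrial stress response had 1 lower of 36 kept (*Ddit4*, 29.3 FPKM in Tam and 18.9 FPKM in DoxTam), and proliferation 1 lower of 30 (*Cdkn2a*, 13.97 FPKM and 8.14 FPKM), with *Mki67* at 70.8 FPKM and 69.4 FPKM. Histone genes had 3 higher and 3 lower of 68, among them *Hist1h2ad* (7.004 FPKM in Tam, 2.86 FPKM in DoxTam), *Hist1h2bm* (34.0 and 53.5 FPKM) and *Hist1h4j*, which is listed at 0 in Tam and stood at 1.09 FPKM in DoxTam. The mitochondrially encoded genes were not analysed here.

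Small RNA genes spread far wider than any other list, with 44 higher and 42 lower of 130 kept. Of them 24 are listed at 0 in Tam and 28 in DoxTam while above 0 in the other library. Their share of the genes past 1.5-fold was 44 of 264 higher and 42 of 726 lower genes. Of the 1117 olfactory receptors 32 passed the filter, which selects those high in either library, and the summed level over all of them was 319 FPKM in Tam and 68.8 FPKM in DoxTam.

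The median fold varied more with the base composition of the transcripts than by chromosome. Across 11255 kept genes with a GC value, Spearman's correlation of fold and GC content was -0.30, a description across genes of 1 pair of libraries that differ in depth. The median fold was 0.10 in the bin of lowest GC content out of 10 and -0.15 in the bin of highest. By chromosome the median ran from -0.07 on chromosome 19 to 0.04 on chromosome 14, where 7.19% of 445 kept genes were lower and 4.94% higher. The share of lower genes ran from 3.04% on chromosome 8 to 8.02% on chromosome 6, and over the GC bins from 2.76% to 7.02%. With the GC trend removed 181 genes were higher and 501 lower, against 160 and 564 for the same genes without that step.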

How the data were processed

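RNA-seq libraries of E14 mouse ESCs labelled Tam and DoxTam, 1 for each condition, were compared as the submitters' labels group them, and WT is given beside them. RNA was prepared with a stranded kit, and whether counting used strand is not given in the sources used. The authors deposited gene levels as FPKM, for which the submitters' processing notes name TopHat, Bowtie, Cufflinks 2.0.0 and mm9. The deposited fold, test and p-value columns hold the authors' comparisons with WT and were not used. The treated libraries' levels stand in separate tables, in which WT differed by over 1% for 2 genes. Rows were joined on locus and symbol, and 27 rows, whose symbol in 1 table had turned into a date, on locus alone.

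Folds are log2((FPKM + 1)/(FPKM + 1)), which understates changes of low genes. Genes at 1 FPKM or more in either library were kept and counted at 1.5-fold, with no test. Depth was estimated from the lowest levels above 0, and is approximate. GC content is that of the longest GENCODE protein-coding transcript (mm9), with lowess (span 0.2, statsmodels 0.14.6). Named genes are those the study names; the 12 highest and 12 lowest folds at 5 FPKM or more, without gene models, small RNA genes, olfactory receptors and genes the authors' table marks as not tested; up to 3 members per list in each direction past 1.5-fold, with pathway members needed beside them; and the 5 most abundant protein genes, not all of which are printed. The comparison, its members and the lists were chosen with earlier results of these data known. Alternatives were pseudocounts of 0.1 and 5 FPKM, no filter and a filter at 5 FPKM, centring, both rescalings, GC correction, omission of small RNA genes or of genes not marked OK, a join on symbol and 2-fold. Subtraction of the olfactory receptor mean and restriction to genes with a GC value were chosen after seeing the data. The fold and count steps were checked on simulated data with 200 changed genes.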

Additional observations from a re-analysis of the deposited data

How the results depend on the processing

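With 1 library for each condition no leave-one-out could be run, and no paired analysis was possible because each condition has 1 library. The counts of higher and lower genes, 264 and 726, became 469 and 1147 at a pseudocount of 0.1 FPKM, 75 and 194 at a pseudocount of 5 FPKM, 150 and 314 with a filter at 5 FPKM, 141 and 289 among genes marked OK in both tables, 58 and 250 at 2-fold, and 710 and 445 after rescaling to the same summed FPKM, the only setting with more higher than lower genes. Without a filter 1229 genes were lower. Subtracting the olfactory receptor mean gave 409 higher genes, and 160 were higher among genes with a GC value. The log2 fold of *Pou5f1* was 0.00608 with summed FPKM made equal and -0.0922 without the GC trend. The median of the olfactory receptors turned to 0.27 with the filter at 5 FPKM, which leaves few of them. Of 87 named genes past 1.5-fold, 71 stayed past it after rescaling to the same total and 83 after rescaling without small RNA genes. After the GC correction 73 of 80 with a GC value stayed past it, and 47 did at a pseudocount of 5 FPKM. None changed sign, which is no check. The genes were picked past 1.5-fold, a pseudocount cannot turn a sign, and rescaling to the same total raised the median fold by only 0.19. The 16 lost on that rescaling were all lower in DoxTam, as they had to be, because it raises the folds. Levels below 1 FPKM come from few fragments, which limits the precision of their folds.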
